A study of Mus musculus with 10 samples.

Results

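The 36 genes described here carry glucose into the cell, run glycolysis, make and export lactate, feed pyruvate into the mitochondrion, run the pentose phosphate pathway, or belong to the hypoxia-inducible factor (HIF) pathway. They were chosen by gene name from the 55573 genes of the table, with no measured value in the rule, but with earlier results of these data known. The set holds the glucose transporters Slc2a1 and Slc2a6, 3 hexokinases, 3 phosphofructokinases, 4 enzymes of the Pfkfb family, 10 other glycolytic enzymes, 4 lactate genes, 4 genes of pyruvate dehydrogenase and its kinases, 4 pentose phosphate genes, and the HIF genes Hif1a and Egln3. All 36 passed the filter of at least 1 CPM (the reads on a gene scaled to a common library total) in at least 2 of the 10 libraries. Egln3 reached 1 CPM in 3 libraries, 2 of them those of R848, so it could enter the tests only because R848 raised it, and Ldhb reached 1 CPM in 7.

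The RNA came from bone marrow-derived macrophages (BMDMs), cells grown from the marrow of wild-type female C57BL/6 mice with the growth factor MCSF, and was taken after 4 hours of treatment. The groups were vehicle, polyU (5 µg of single-stranded poly-uridine RNA carried into the cells by the lipid DOTAP), PNPi+dG/rG (1 µM of the purine nucleoside phosphorylase inhibitor ulodesine, 5 µM deoxyguanosine and 5 µM guanosine), PNPi+dG/rG+polyU (all of these together) and R848 (1 ng/mL), with 2 libraries each. R848 is a synthetic imidazoquinoline that binds the RNA sensor TLR7 without RNA, whereas the guanosine nucleosides act on TLR7 together with single-stranded RNA, and the study set the natural pair of ligands against the synthetic one. The labels call the libraries biological replicates but do not tie them to separate mice, so p-values measure the spread between these samples, and whether the vehicle contained DOTAP is not given in the sources used here.

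Glycolysis turns glucose into pyruvate and yields ATP without oxygen. Pyruvate is either reduced to lactate and exported or passed to the mitochondrion by pyruvate dehydrogenase, which PDK kinases switch off, and glucose can also leave glycolysis for the pentose phosphate pathway, which makes NADPH and ribose. Macrophages stimulated through Toll-like receptors are known for taking up more glucose and making more lactate, and HIF, a factor kept low in normal oxygen by prolyl hydroxylases such as the product of Egln3, is known to switch on many glycolytic genes in them.

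Depth ran from 14128128 to 38392592 reads on genes per library, so 3 reads correspond to between 0.0781 and 0.212 CPM. All 10 macrophage markers were at 1 CPM or more in every group, with a summed level of 16509 to 19341 CPM. The fibroblast markers summed to 139 to 149 CPM with R848 and to between 0.561 and 5.28 CPM in the other 4 groups. With R848, 6 of these 7 markers were at 1 CPM or more in both libraries, and Lum was listed at 0 in 1 library and was at 0.0613 CPM in the other. The neutrophil markers summed to 23.0 to 25.2 CPM with R848, with Ly6g, Mpo, Elane, Ltf and Ngp listed at 0, and to between 4.52 and 9.99 CPM elsewhere. The endothelial markers, some of which macrophages express, summed to 64.5 to 69.8 CPM with R848, to 143 CPM with PNPi+dG/rG+polyU and to between 207 and 246 CPM in the other groups. T cell, B cell, red cell and dendritic cell markers were at or near 0 in all groups. The part of these markers in the results of R848 and PNPi+dG/rG+polyU was not tested.

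HIF binds DNA at a short core, ACGTG or GCGTG, and the promoter stretch of 250 to 51 bases before the gene start was searched for it on both strands. The sequences of 5 members with a single RefSeq start are shown as examples of glucose uptake, phosphorylation, lactate export and the HIF pathway itself, and they were chosen with their values known. Other members with a single start are not shown, among them Slc2a6, which holds 4 matches. They are from RefSeq (GRCm38.p6), written 5′ to 3′ on the strand of the gene, and capitals mark the core, also where it lies on the other strand as CACGT or CACGC.
Slc2a1, chr4:119108495-119108694, + strand: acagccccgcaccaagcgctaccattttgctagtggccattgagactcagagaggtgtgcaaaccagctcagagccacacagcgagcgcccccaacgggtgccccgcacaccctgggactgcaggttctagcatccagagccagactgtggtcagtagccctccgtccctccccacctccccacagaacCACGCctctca
Hk2, chr6:82774505-82774704, - strand: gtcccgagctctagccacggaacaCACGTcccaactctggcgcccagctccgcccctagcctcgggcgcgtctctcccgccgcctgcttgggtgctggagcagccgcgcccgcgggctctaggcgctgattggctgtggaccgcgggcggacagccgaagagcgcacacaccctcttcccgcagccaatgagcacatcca
Slc16a3, chr11:120948817-120949016, + strand: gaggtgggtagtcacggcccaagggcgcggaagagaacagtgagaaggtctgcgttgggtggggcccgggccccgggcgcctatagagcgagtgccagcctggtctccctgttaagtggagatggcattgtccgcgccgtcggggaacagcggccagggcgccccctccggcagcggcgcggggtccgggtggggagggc
Egln3, chr12:54203925-54204124, - strand: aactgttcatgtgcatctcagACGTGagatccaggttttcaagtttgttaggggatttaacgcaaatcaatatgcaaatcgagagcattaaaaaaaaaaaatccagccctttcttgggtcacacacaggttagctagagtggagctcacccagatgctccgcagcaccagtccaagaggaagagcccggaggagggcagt
Hif1a, chr12:73907617-73907816, + strand: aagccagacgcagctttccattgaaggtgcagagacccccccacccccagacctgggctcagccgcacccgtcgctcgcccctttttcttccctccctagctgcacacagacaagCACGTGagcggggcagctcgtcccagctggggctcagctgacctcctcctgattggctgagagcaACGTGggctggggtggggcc

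The stretches of Slc2a1, Hk2 and Egln3 hold 1 match each, that of Hif1a holds 3, and that of Slc16a3 holds none. None of the 5 overlaps an annotated exon in GENCODE, and those of Slc16a3 and Hif1a lie in an intron of transcripts that start further upstream. The CACGTG in the Hif1a stretch reads as ACGTG on either strand and is also the E-box core. At least 1 such match was in a promoter of 28 of the 36 members, or 77.8%, and of 34.4% of the 27025 genes with a promoter in the table. Those genes were taken whether or not they are expressed in these cells, and were not matched to the members for base content. A gene was counted if any of its promoters held a match, and some genes have several. Counted by promoter, 37 of the 56 of the members (66.1%) and 31.6% of all 32851 held a match. Among the 9 members that R848 raised at least 2-fold 7 held a match, as did all 6 of those it lowered at least 2-fold. By promoter these were 8 of 10 (80%) and 8 of 12 (66.7%), and all these counts are a description with no test. The E-box core CACGTG was in a promoter of 5 members (13.9%) and of 4.98% of all genes, and by promoter the shares were 8.93% and 4.34%.

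R848 moved 32 of the 36 members away from vehicle, 16 up and 16 down (adjusted p under 0.05 in limma across all genes). The counts of rises in this paragraph include Egln3 as a description, since it entered the tests through its R848 libraries. Among the 11978 genes tested it called 19.2% higher and 62.9% lower, and the share of the members was 44.4% in each direction. Rises of at least 2-fold were called for 9 members, where 8.89% of all genes were, and falls of that size for 6 members, where 30.3% of all genes were. The median log2 fold change was -0.02 over the members and -0.50 over all genes tested. CPM is a share of a library, and after each library was centred on the median of its genes 24 members were called higher (43% of all genes) and 9 lower (34.6% of all genes). On that scale 13 members were called at least 2-fold higher (15.0% of all genes). Only 2 members, Pfkfb2 and Pdk2, were called at least 2-fold lower (17.6% of all genes). In bulk RNA, fewer cells of a type and less RNA per cell cannot be told apart.

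PNPi+dG/rG+polyU called 9 members higher and 20 lower than vehicle, where 22.2% of all genes were called higher and 46.7% lower. Only Slc2a6 and Pfkfb3 rose at least 2-fold (8.12% of all genes did), and Hk1, Pfkfb2, Slc16a1 and Pdk2 fell at least 2-fold (14.3% of all genes did). With the libraries centred, the counts were 14 higher and 9 lower, against 33.2% of all genes in each direction. The overall median shift was -0.22 here, and the median over the members was -0.16. PNPi+dG/rG alone called no member in either direction, where 0.409% of all genes were called higher and 0.392% lower, and 3 members had an unadjusted p under 0.05. The comparisons of PNPi+dG/rG+polyU and R848 share the vehicle libraries, so each is described on its own, and the direct contrast of the 2 stimuli comes after them.

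**Figure D1:**
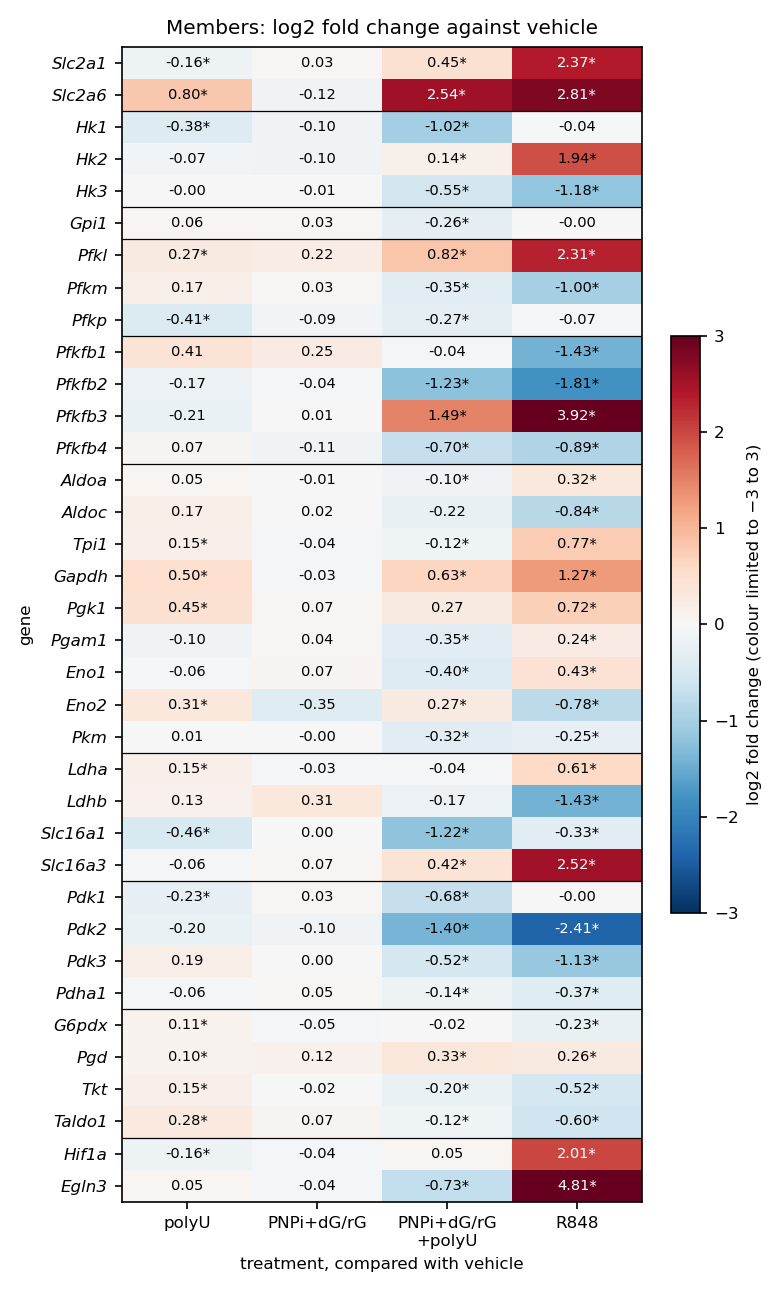
Log2 fold change of each of the 36 members (rows, grouped by role) against vehicle for the 4 treatments (columns), with n = 2 libraries per group. Red is higher and blue is lower than vehicle, and an asterisk marks an adjusted p under 0.05. The R848 column holds the strongest colours in both directions, with Egln3 at 4.81 and Pdk2 at -2.41, and no cell of the PNPi+dG/rG column has an asterisk. The asterisk of Egln3 with R848 is a description, since Egln3 entered the tests through its R848 libraries.

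Both glucose transporters rose with both TLR7 stimuli, which here means PNPi+dG/rG+polyU and R848. Slc2a1, the basal glucose transporter of most cells, was at 112 and 120.1 CPM in the vehicle libraries, 105 and 102 after polyU, 119 and 117 after PNPi+dG/rG, 157 and 161 after PNPi+dG/rG+polyU and 581 and 622 after R848. The R848 libraries stood far above all others, and those of PNPi+dG/rG+polyU just above the remaining groups with no overlap. The rise was 5.19-fold with R848 (log2 fold change 2.37 ± 0.050, adjusted p = 5.26e-16) and 1.37-fold with PNPi+dG/rG+polyU (log2 fold change 0.45 ± 0.050, adjusted p = 7.29e-07), where ± is the SE here and in all fold changes. Slc2a6, a transporter of intracellular membranes that is abundant in myeloid cells, was at 37.9 and 37.9 CPM with vehicle, 61.7 and 70.8 after polyU, 35.2 and 34.8 after PNPi+dG/rG, 214 and 228 after PNPi+dG/rG+polyU and 252 and 282 after R848. Here the 2 stimuli lay close together, and polyU alone also stood above vehicle. The rise was 5.82-fold with PNPi+dG/rG+polyU (log2 fold change 2.54 ± 0.069, adjusted p = 2.7e-14), 7.02-fold with R848 (log2 fold change 2.81 ± 0.069, adjusted p = 3.57e-15) and 1.74-fold with polyU (log2 fold change 0.80 ± 0.069, adjusted p = 2.39e-07). PNPi+dG/rG+polyU minus R848 was -0.27 ± 0.069 (adjusted p = 0.00248), and without the second R848 library it was -0.19 with an adjusted p of 0.0522.

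The 3 hexokinases, which trap glucose in the cell by phosphorylating it, went different ways. Hk2, the inducible form, was at 99.0 and 102 CPM with vehicle, 92.9 and 97.9 after polyU, 94.4 and 93.5 after PNPi+dG/rG, 104 and 118 after PNPi+dG/rG+polyU and 380.1 and 388 after R848. The R848 libraries were the high ones, and the other 8 lay within a narrow band. R848 raised Hk2 3.82-fold (log2 fold change 1.94 ± 0.058, adjusted p = 3.71e-14), and with PNPi+dG/rG+polyU the change was 0.14 ± 0.058 (adjusted p = 0.0372), a call lost without the second library of that group (0.05, adjusted p = 0.469), without the first (0.12, adjusted p = 0.148) or second vehicle library (0.16, adjusted p = 0.0603), and in 2 other alternatives. Hk1, the housekeeping form, was at 216 and 229 CPM with vehicle, 170.1 and 172 after polyU, 207 and 206 after PNPi+dG/rG, 103 and 116 after PNPi+dG/rG+polyU and 214 and 219 after R848. It was lowest in the PNPi+dG/rG+polyU libraries, next lowest in those of polyU, and the R848 and vehicle libraries overlapped. The fall was 2.03-fold with PNPi+dG/rG+polyU (log2 fold change -1.02 ± 0.053, adjusted p = 7.83e-11), while with R848 the change was -0.04 with a 95% interval of -0.15 to 0.07, and 0.56 with the libraries centred. Hk3, a form of blood cells, was at 423 and 465 CPM with vehicle, 416 and 472 after polyU, 443 and 435 after PNPi+dG/rG, 299 and 308 after PNPi+dG/rG+polyU and 187 and 205 after R848. It fell with both stimuli and was lowest with R848, 2.269-fold below vehicle (log2 fold change -1.18 ± 0.063, adjusted p = 4.78e-10), against 1.46-fold with PNPi+dG/rG+polyU (log2 fold change -0.55 ± 0.063, adjusted p = 3.5e-06).

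Phosphofructokinase makes the committed step of glycolysis, and its 3 genes also diverged. Pfkl, the liver-type subunit, was at 67.5 and 71.5 CPM with vehicle, 84.0 and 83.2 after polyU, 82.1 and 79.4 after PNPi+dG/rG, 125 and 121 after PNPi+dG/rG+polyU and 338 and 351 after R848. All 8 treated libraries lay above both vehicle libraries, those of R848 by the most. The rise was 4.95-fold with R848 (log2 fold change 2.31 ± 0.050, adjusted p = 8.01e-16), 1.77-fold with PNPi+dG/rG+polyU (log2 fold change 0.82 ± 0.050, adjusted p = 5.73e-10), 1.20-fold with polyU (adjusted p = 0.000568), and 0.22 ± 0.050 on the log2 scale with PNPi+dG/rG (adjusted p = 0.064, not called). Pfkp, the platelet-type subunit, was at 196 and 198 CPM with vehicle, 141 and 156 after polyU, 183 and 187 after PNPi+dG/rG, 155 and 172 after PNPi+dG/rG+polyU and 187 and 189 after R848. It was lowest in the groups that received polyU, whose ranges touched, with log2 fold change -0.41 ± 0.056, adjusted p = 2.75e-05 for polyU and log2 fold change -0.27 ± 0.056, adjusted p = 0.000519 for PNPi+dG/rG+polyU, whereas R848 gave -0.07 (95% interval -0.19 to 0.05). The centred value was -0.06 and not called for PNPi+dG/rG+polyU, and 0.52 and called higher for R848. Pfkm, the muscle-type subunit, was at 14.4 ± 1.16 CPM (SD, n = 2, as for all CPM means) with vehicle, 11.3 ± 0.151 after PNPi+dG/rG+polyU and 7.21 ± 0.321 after R848, a fall of 2.00-fold with R848 (log2 fold change -0.997 ± 0.11, adjusted p = 3.71e-07).

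The Pfkfb enzymes make and remove the fructose bisphosphate that activates phosphofructokinase, and with R848 Pfkfb3, the form that mostly makes it, rose while the other 3 fell. Pfkfb3 was at 71.5 and 77.3 CPM with vehicle, 61.3 and 67.5 after polyU, 75.2 and 74.9 after PNPi+dG/rG, 188 and 232 after PNPi+dG/rG+polyU and 1096 and 1163 after R848. The groups ordered as R848, then PNPi+dG/rG+polyU, then the rest, with no overlap between these 3 tiers. R848 raised it 15.2-fold (log2 fold change 3.92 ± 0.086, adjusted p = 1.63e-12) and PNPi+dG/rG+polyU 2.81-fold (log2 fold change 1.49 ± 0.086, adjusted p = 2.49e-08). Pfkfb2, the heart-type form, was at 11.4 and 11.01 CPM with vehicle, 9.32 and 10.8 after polyU, 10.6 and 11.3 after PNPi+dG/rG, 5.24 and 4.36 after PNPi+dG/rG+polyU and 2.92 and 3.49 after R848. Both TLR7 stimuli left it below every other library, with a fall of 2.35-fold (log2 fold change -1.23 ± 0.15, adjusted p = 2.46e-06) and 3.52-fold (log2 fold change -1.81 ± 0.15, adjusted p = 1.49e-08). Pfkfb1, the liver-type form, was low throughout, at 3.09 and 2.98 CPM with vehicle, 5.34 and 3.02 after polyU, 3.57 and 3.64 after PNPi+dG/rG, 3.26 and 2.67 after PNPi+dG/rG+polyU and 1.06 and 1.19 after R848, and the R848 libraries (20 and 39 reads) were the low ones (log2 fold change -1.43 ± 0.26, adjusted p = 0.000103). Pfkfb4 was at 35.1 ± 1.44 CPM with vehicle, 21.7 ± 1.00 after PNPi+dG/rG+polyU and 18.9 ± 0.0899 after R848, lower with both stimuli (adjusted p = 1.23e-06 and 3.86e-08).

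**Figure D2:**
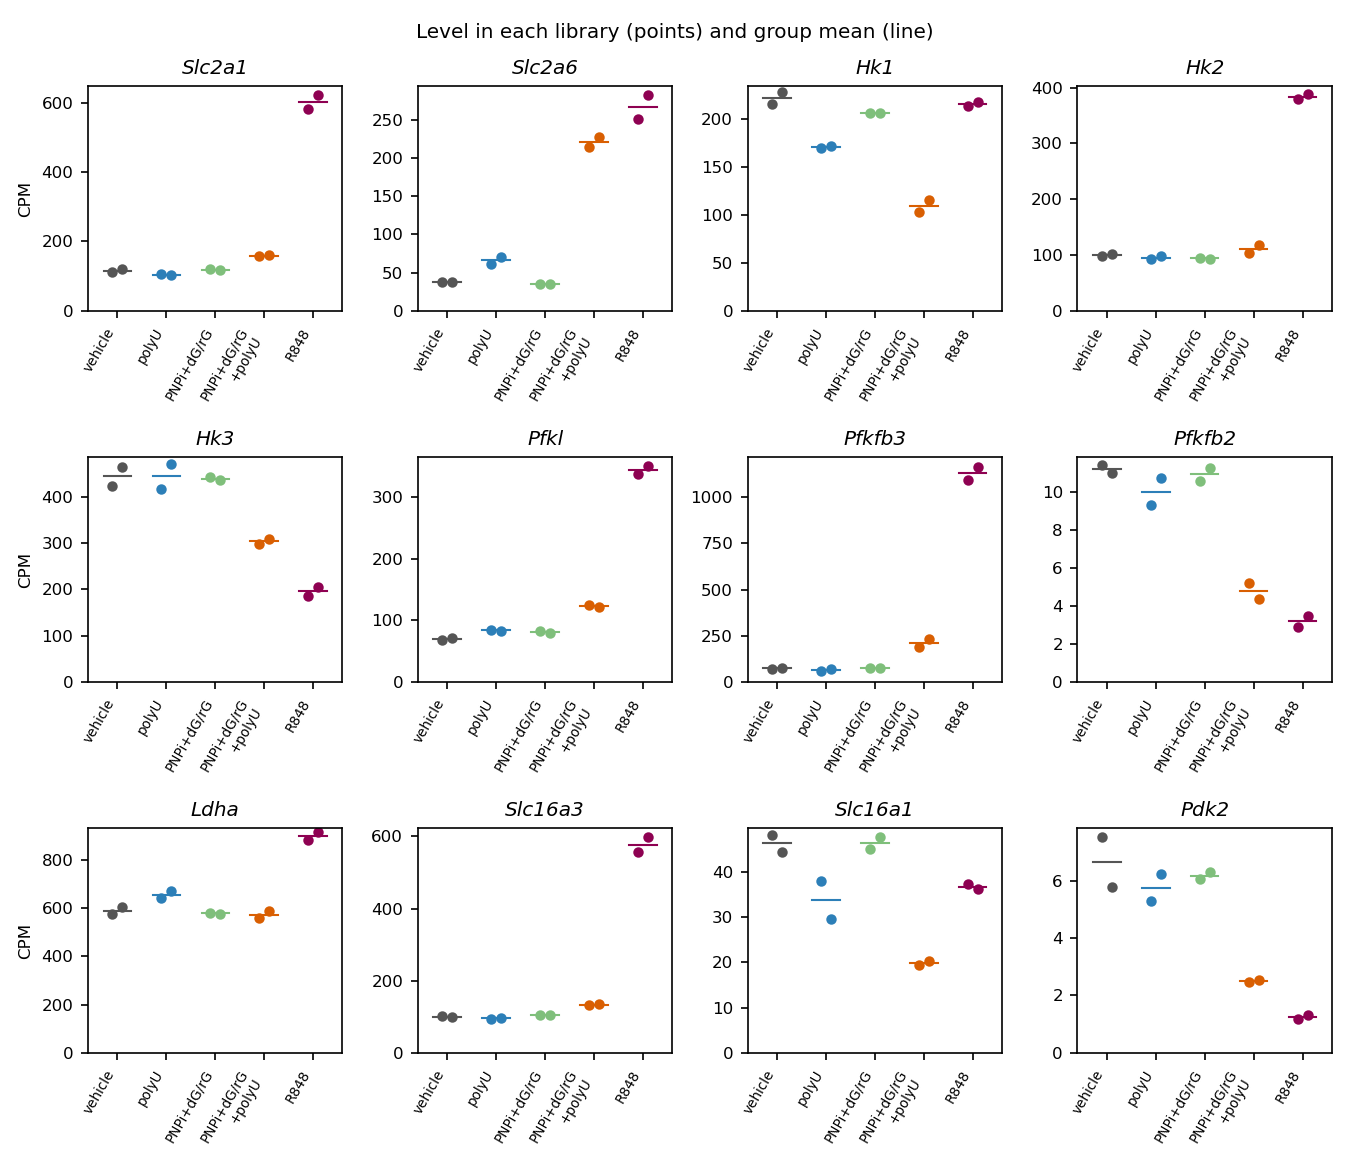
CPM (y axis, starting at 0) of 12 members in each of the 10 libraries (points), by treatment (x axis), with the mean of the 2 libraries of a group as a line. Slc2a1, Hk2, Pfkl, Pfkfb3, Ldha and Slc16a3 are high in the 2 R848 libraries, Slc2a6 is high with both TLR7 stimuli, and Hk3, Pfkfb2 and Pdk2 are low with both.

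Of the 10 further glycolytic enzymes, R848 raised 6 and lowered 3, and PNPi+dG/rG+polyU raised 2 and lowered 6, beside 19.2% and 62.9% of all genes with R848 and 22.2% and 46.7% with PNPi+dG/rG+polyU. Centring the libraries gave 8 higher and 1 lower with R848 (43% and 34.6% of all genes). With PNPi+dG/rG+polyU it gave 4 higher and 2 lower (33.2% of all genes in each direction). Aldoa, the main aldolase, was at 1150.4 and 1236 CPM with vehicle, 1221 and 1256 after polyU, 1209 and 1167 after PNPi+dG/rG, 1107 and 1114 after PNPi+dG/rG+polyU and 1430.5 and 1539 after R848. Tpi1, triose phosphate isomerase, was at 286 and 285 CPM with vehicle, 306 and 329 after polyU, 279 and 276 after PNPi+dG/rG, 256 and 269 after PNPi+dG/rG+polyU and 477 and 497 after R848. Both were highest in the R848 libraries and lowest in those of PNPi+dG/rG+polyU, by small steps in the latter. Relative to vehicle the log2 fold change of Aldoa was 0.32 ± 0.043 with R848 (adjusted p = 5.85e-06) and -0.10 ± 0.043 with PNPi+dG/rG+polyU (adjusted p = 0.0479), and that of Tpi1 was 0.77 ± 0.045 (adjusted p = 2.02e-10) and -0.12 ± 0.045 (adjusted p = 0.0257). The falls with PNPi+dG/rG+polyU are smaller than the overall shift of that comparison and were 0.11 and 0.09 with the libraries centred. Without the second vehicle library the Aldoa value was -0.05 (adjusted p = 0.384), and without the first PNPi+dG/rG+polyU library that of Tpi1 was -0.09 (adjusted p = 0.185).

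Eno1, the main enolase, and Pgam1, phosphoglycerate mutase, followed the same order. Eno1 was at 115 and 132 CPM with vehicle, 118 and 118 after polyU, 132 and 127 after PNPi+dG/rG, 91.7 and 95.4 after PNPi+dG/rG+polyU and 163 and 168 after R848. Pgam1 was at 29.2 and 30.2 CPM with vehicle, 27.96 and 27.3 after polyU, 31.1 and 29.7 after PNPi+dG/rG, 23.0 and 23.7 after PNPi+dG/rG+polyU and 35.9 and 34.1 after R848. For both genes the R848 libraries were above all others and the PNPi+dG/rG+polyU libraries below all others. Eno1 rose with R848 (log2 fold change 0.43 ± 0.059, adjusted p = 6.18e-06) and fell with PNPi+dG/rG+polyU (log2 fold change -0.40 ± 0.059, adjusted p = 2.18e-05). Pgam1 rose with R848 (log2 fold change 0.24 ± 0.072, adjusted p = 0.00672), a call lost without the first R848 library (0.20, adjusted p = 0.0589) and when no filter on low values was used, and fell with PNPi+dG/rG+polyU (log2 fold change -0.35 ± 0.072, adjusted p = 0.000551), which was -0.13 and not called with the libraries centred. Eno2, the neuronal enolase, went the other way, at 14.6 and 14.8 CPM with vehicle, 18.2 and 18.2 after polyU, 11.2 and 11.8 after PNPi+dG/rG, 17.7 and 17.7 after PNPi+dG/rG+polyU and 8.82 and 8.33 after R848. It was high in both groups that received polyU and lowest with R848 (log2 fold change -0.78 ± 0.10, adjusted p = 2.01e-06, and log2 fold change 0.27 ± 0.10, adjusted p = 0.023 with PNPi+dG/rG+polyU), although with the libraries centred the R848 change was -0.18 and not called. The rise of Eno2 with PNPi+dG/rG+polyU lost its call when any of the 4 libraries compared was left out (adjusted p from 0.0560 to 0.0729).

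Gapdh, which couples glyceraldehyde phosphate oxidation to NADH, was at 9.93 and 11.3 CPM with vehicle, 15.4 and 14.6 after polyU, 10.7 and 10.2 after PNPi+dG/rG, 16.1 and 16.8 after PNPi+dG/rG+polyU and 25.5 and 25.6 after R848. All 6 libraries that received polyU or R848 lay above the other 4 (log2 fold change 1.27 ± 0.10, adjusted p = 8.83e-09 with R848, and log2 fold change 0.63 ± 0.10, adjusted p = 4.13e-05 with PNPi+dG/rG+polyU). This level is uncertain, because 25.1% of the 50-base stretches of its transcripts are also in transcripts of other genes, among them 213 pseudogenes, whose rows together held between 65.7 and 93.1 CPM, more than the Gapdh row in every library. The same measure was 53.9% for Pgk1, 36.2% for Pgam1, 25.99% for Eno1, 25.8% for Pkm and 20.99% for Ldhb, and how reads on such stretches were counted is not given in the sources used here. Pgk1, phosphoglycerate kinase, was at 8.28 ± 2.11 CPM with vehicle, 9.81 ± 0.641 after PNPi+dG/rG+polyU and 13.4 ± 1.35 after R848 (log2 fold change 0.72 ± 0.16, adjusted p = 0.000615).

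Pkm, the pyruvate kinase of macrophages, was at 1421 and 1413 CPM with vehicle, 1425 and 1433 after polyU, 1416 and 1417 after PNPi+dG/rG, 1115 and 1153 after PNPi+dG/rG+polyU and 1173 and 1215 after R848. It was lower in the 4 libraries of the TLR7 stimuli than in the other 6 (log2 fold change -0.25 ± 0.034, adjusted p = 6.32e-06 with R848, and log2 fold change -0.32 ± 0.034, adjusted p = 5.38e-07 with PNPi+dG/rG+polyU). With the libraries centred the R848 change was 0.35, so its direction depends on the scale. Gpi1, glucose phosphate isomerase, fell with PNPi+dG/rG+polyU (360.0 ± 0.313 CPM with vehicle and 301 ± 6.69 with the treatment, adjusted p = 3.27e-05), where the change was -0.05 and not called with the libraries centred, and with R848 its change was -0.00 (95% interval -0.09 to 0.08, 0.59 with the libraries centred). Aldoc, the brain-type aldolase, was at 31.2 ± 3.05 CPM with vehicle and 17.4 ± 0.563 after R848 (log2 fold change -0.84 ± 0.10, adjusted p = 7.6e-07).

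Among the lactate genes, the exporter Slc16a3 and the dehydrogenase Ldha rose with R848, and the transporter Slc16a1 and the dehydrogenase Ldhb fell. Slc16a3, the lactate exporter of glycolytic cells, was at 101 and 99.1 CPM with vehicle, 94.8 and 97.05 after polyU, 105 and 105 after PNPi+dG/rG, 132 and 136 after PNPi+dG/rG+polyU and 556 and 598 after R848. Its R848 libraries stood far above the rest, and PNPi+dG/rG+polyU came next without overlap. The rise was 5.75-fold with R848 (log2 fold change 2.52 ± 0.048, adjusted p = 1.8e-16) and 1.34-fold with PNPi+dG/rG+polyU (log2 fold change 0.42 ± 0.048, adjusted p = 1.09e-06). Slc16a1, which carries lactate and pyruvate in either direction, was at 48.3 and 44.3 CPM with vehicle, 38.02 and 29.6 after polyU, 45.1 and 47.6 after PNPi+dG/rG, 19.4 and 20.4 after PNPi+dG/rG+polyU and 37.3 and 36.1 after R848. It was lowest with PNPi+dG/rG+polyU, 2.33-fold below vehicle (log2 fold change -1.22 ± 0.10, adjusted p = 2.35e-08), lower also with polyU (log2 fold change -0.46 ± 0.10, adjusted p = 0.00145), and lower with R848 (log2 fold change -0.33 ± 0.10, adjusted p = 0.00535, but 0.26 with the libraries centred, and -0.27 with an adjusted p of 0.0529 without the first vehicle library).

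Ldha, the subunit that favours lactate formation, was at 576 and 602 CPM with vehicle, 640.0 and 668 after polyU, 579.7 and 574 after PNPi+dG/rG, 559 and 585 after PNPi+dG/rG+polyU and 883 and 913 after R848. The R848 libraries were high, those of polyU slightly above vehicle, and PNPi+dG/rG+polyU overlapped vehicle. Ldha rose 1.52-fold with R848 (log2 fold change 0.61 ± 0.041, adjusted p = 1.02e-09), and with PNPi+dG/rG+polyU the change was -0.04 (95% interval -0.13 to 0.04, adjusted p = 0.372, and 0.17 with the libraries centred, called). Ldhb, the heart-type subunit, was at 1.23 and 1.29 CPM with vehicle, 1.36 and 1.39 after polyU, 1.48 and 1.66 after PNPi+dG/rG, 1.27 and 0.985 after PNPi+dG/rG+polyU and 0.425 and 0.521 after R848, where the R848 values rest on 8 and 17 reads. R848 lowered it 2.69-fold (log2 fold change -1.43 ± 0.34, adjusted p = 0.00107).

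The PDK kinases shut pyruvate dehydrogenase off. All 3 in the set were called lower with PNPi+dG/rG+polyU (46.7% of all genes were), and Pdk2 and Pdk3 with R848 (62.9% of all genes were). Pdk4, which is outside the set and was too low to test, had 0 reads in the vehicle and PNPi+dG/rG+polyU libraries. It had 12 and 12 reads in those of R848. Pdk1, a known HIF target, was at 95.6 and 92.9 CPM with vehicle, 84.8 and 75.7 after polyU, 94.9 and 97.9 after PNPi+dG/rG, 59.7 and 58.0 after PNPi+dG/rG+polyU and 91.5 and 96.6 after R848. Both libraries lay below those of vehicle after polyU and after PNPi+dG/rG+polyU, the latter 1.60-fold (log2 fold change -0.68 ± 0.060, adjusted p = 6.08e-08). R848 and vehicle overlapped (-0.00, 95% interval -0.13 to 0.13, and 0.59 with the libraries centred). Pdk2 was at 7.52 and 5.79 CPM with vehicle, 5.28 and 6.22 after polyU, 6.04 and 6.31 after PNPi+dG/rG, 2.48 and 2.53 after PNPi+dG/rG+polyU and 1.17 and 1.32 after R848. It had the largest called fall of any member against vehicle with either stimulus, 5.32-fold with R848 (log2 fold change -2.41 ± 0.19, adjusted p = 1.04e-08) and 2.63-fold with PNPi+dG/rG+polyU (log2 fold change -1.40 ± 0.19, adjusted p = 1.02e-05). The R848 level of Pdk2 is low, so the size of that fall rests on few reads. Pdk3 was at 13.4 ± 0.226 CPM with vehicle, 9.35 ± 0.589 after PNPi+dG/rG+polyU and 6.25 ± 1.86 after R848 (log2 fold change -1.13 ± 0.16, adjusted p = 7.04e-06), and its fall with PNPi+dG/rG+polyU (-0.52 ± 0.16, adjusted p = 0.00828) lost its call without the second library of that group (-0.46, adjusted p = 0.0632) and with the libraries centred (-0.31). Pdha1, the catalytic subunit of the dehydrogenase itself, was at 109.9 ± 2.52 CPM with vehicle, 99.6 ± 2.23 after PNPi+dG/rG+polyU and 85.0 ± 0.686 after R848, lower with both (adjusted p = 0.017 and 3.47e-06), but 0.07 and 0.22 with the libraries centred. Its call with PNPi+dG/rG+polyU was lost without the first vehicle library (-0.12, adjusted p = 0.0927) or the second library of the treatment (-0.12, adjusted p = 0.0963).

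All 4 pentose phosphate members were called higher with polyU alone, by small amounts, where 20.6% of all genes were. After centring 2 of the 4 were called higher (17.2% of all genes were), and G6pdx (0.07) and Pgd (0.06) were not. G6pdx, the entry enzyme, was at 248 and 252 CPM with vehicle, 268 and 271 after polyU, 248 and 237 after PNPi+dG/rG, 251 and 243 after PNPi+dG/rG+polyU and 213 and 215 after R848. It was highest with polyU (log2 fold change 0.11 ± 0.042, adjusted p = 0.0477) and lowest with R848 (log2 fold change -0.23 ± 0.042, adjusted p = 0.000131), the latter 0.37 with the libraries centred. The polyU rise of G6pdx lost its call in all 10 fits that left out 1 library (adjusted p from 0.0527 to 0.171), as did that of Pgd in 5 of them. Pgd, the next oxidative enzyme, was at 517 ± 1.40 CPM with vehicle and rose to 651 ± 0.725 after PNPi+dG/rG+polyU (log2 fold change 0.33 ± 0.036, adjusted p = 6.48e-07) and 619 ± 3.15 after R848 (log2 fold change 0.26 ± 0.036, adjusted p = 5.96e-06). Tkt and Taldo1, which link the pathway back to glycolysis, were at 560.1 ± 14.0 and 311 ± 6.63 CPM with vehicle and fell to 390.5 ± 12.5 and 206 ± 12.0 after R848 (log2 fold change -0.52 ± 0.039 and -0.60 ± 0.047, adjusted p = 4.08e-09 and 8.09e-09). These falls lie close to the overall shift with R848, and with the libraries centred they were 0.07 for Tkt and -0.00 for Taldo1, neither called.

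Hif1a rose with R848 and was not called with PNPi+dG/rG+polyU. Hif1a, the oxygen-regulated subunit of HIF, was at 201 and 197 CPM with vehicle, 188 and 169 after polyU, 184 and 204 after PNPi+dG/rG, 205 and 206 after PNPi+dG/rG+polyU and 812 and 794 after R848. The R848 libraries were far above the rest, and those of polyU lay slightly below vehicle. That polyU fall (-0.16 ± 0.056, adjusted p = 0.0367) lost its call without the second polyU library (-0.08, adjusted p = 0.369), without either vehicle library (adjusted p = 0.158 and 0.0749) or without either PNPi+dG/rG+polyU library (adjusted p = 0.0518 and 0.0519). The rise was 4.04-fold with R848 (log2 fold change 2.01 ± 0.056, adjusted p = 1.56e-14), and with PNPi+dG/rG+polyU the change was 0.05 (95% interval -0.07 to 0.17, adjusted p = 0.452), and 0.26 and called with the libraries centred. Egln3 was at 0.842 and 0.787 CPM with vehicle, 0.682 and 1.05 after polyU, 0.782 and 0.802 after PNPi+dG/rG, 0.425 and 0.563 after PNPi+dG/rG+polyU and 22.8 and 22.9 after R848, that is 15 and 14 reads in the vehicle libraries, 6 and 8 in those of PNPi+dG/rG+polyU, and 429 and 748 in those of R848. The R848 mean was 28.1-fold that of vehicle (log2 fold change 4.81), given as a description with no test, since Egln3 passed the filter through its R848 libraries. The lower value with PNPi+dG/rG+polyU (log2 fold change -0.73 ± 0.31, adjusted p = 0.046) rests on those few reads and lost its call in 12 of 18 alternatives, 7 of which left out 1 library (adjusted p from 0.0604 to 0.190).

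**Figure D3:**
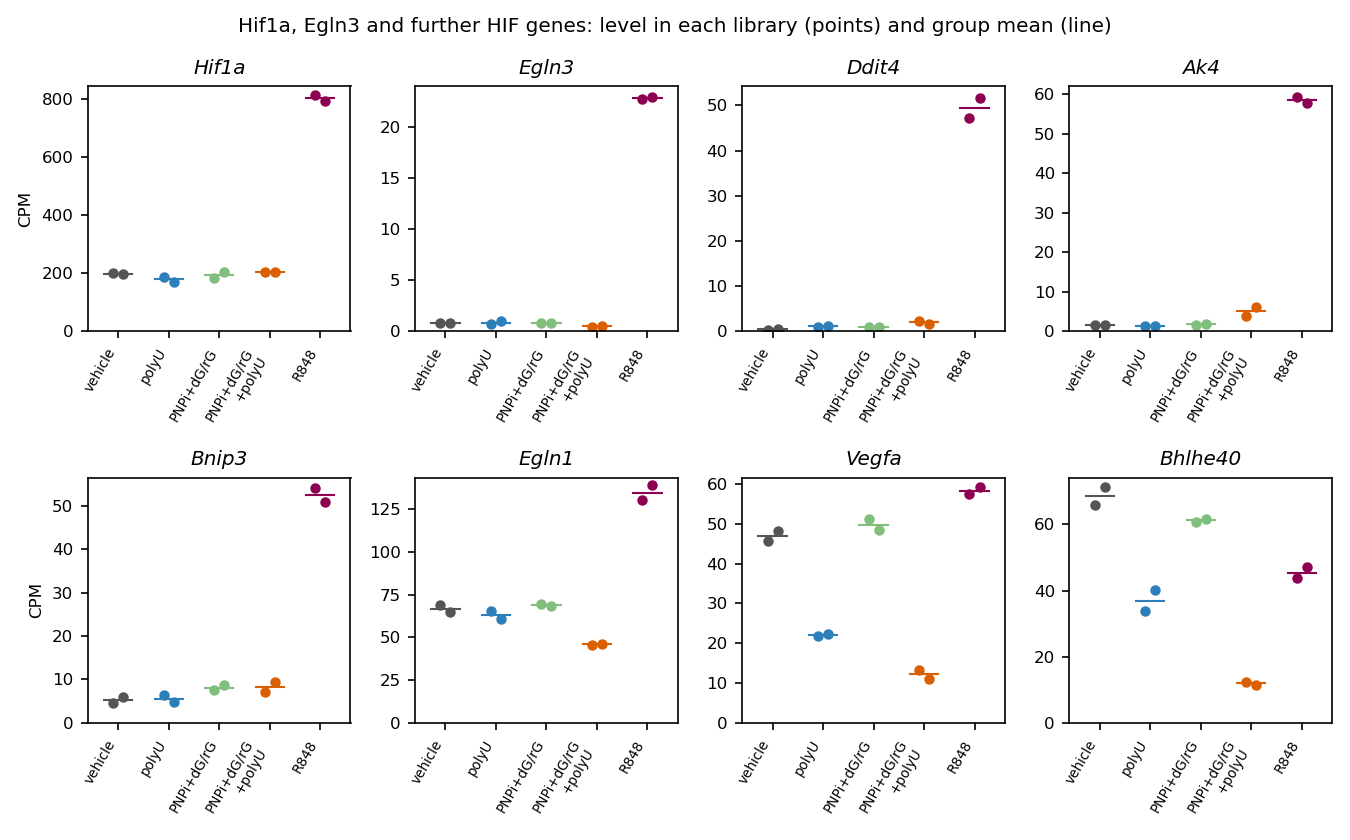
CPM (y axis, starting at 0) of the members Hif1a and Egln3 and of 6 further HIF regulators and targets in each library (points), by treatment (x axis), with the mean of the 2 libraries of a group as a line. Hif1a, Egln3, Ddit4, Ak4, Bnip3 and Egln1 are high in the R848 libraries, and Vegfa and Bhlhe40 are lowest in those of PNPi+dG/rG+polyU.

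Other HIF regulators and known targets, 22 genes of which 21 could be tested, gave 14 higher and 4 lower with R848, where 19.2% of all genes were higher and 62.9% lower, and 8 higher and 8 lower with PNPi+dG/rG+polyU, where 22.2% were higher and 46.7% lower. Centring gave 17 higher and 3 lower with R848 (43% and 34.6% of all genes). With PNPi+dG/rG+polyU it gave 10 higher and 8 lower (33.2% of all genes in each direction). Ddit4, an inhibitor of mTOR signalling, rose from 0.337 and 0.506 CPM with vehicle to 2.265 and 1.69 after PNPi+dG/rG+polyU (log2 fold change 2.24 ± 0.27, adjusted p = 2.14e-06) and 47.3 and 51.7 after R848 (log2 fold change 6.90 ± 0.27, adjusted p = 1.15e-12). In the vehicle libraries 3 reads are 0.168 and 0.169 CPM, so the vehicle level of Ddit4 and the sizes of both rises rest on few reads. Ak4, a mitochondrial adenylate kinase, rose from 1.57 and 1.52 CPM to 3.82 and 6.26 (log2 fold change 1.66 ± 0.21, adjusted p = 4.4e-06) and 59.2 and 57.7 (log2 fold change 5.24 ± 0.21, adjusted p = 1.9e-12), and Bnip3, a mitophagy receptor, from 4.601 and 5.96 CPM to 7.22 and 9.50 (log2 fold change 0.66 ± 0.17, adjusted p = 0.00252) and 54.0 and 50.8 (log2 fold change 3.32 ± 0.17, adjusted p = 4.18e-11). Adm, which encodes the peptide adrenomedullin, had 0 reads in both vehicle libraries, 3.40 and 2.95 CPM with PNPi+dG/rG+polyU and 11.3 and 10.7 after R848, at least 18.9-fold and at least 65.5-fold higher than 3 reads per vehicle library allow. Adm reached 1 CPM only in the libraries of PNPi+dG/rG+polyU and R848, so it entered the tests through them. Where the counts of this list hold Adm, it is a description. In the other direction, the 4 genes lowered by R848 were the lipid droplet gene Plin2 (-1.998 ± 0.046), Mxi1 (-1.60 ± 0.11), Epas1 (-1.21 ± 0.22) and Bhlhe40 (-0.59 ± 0.083, but 0.00 with the libraries centred). PNPi+dG/rG+polyU lowered Bhlhe40, a transcription repressor, to 12.5 and 11.5 CPM from 65.8 and 71.2 (log2 fold change -2.52 ± 0.083, adjusted p = 2.95e-13), Plin2 from 1068 and 1142 to 278 and 293 (log2 fold change -1.95 ± 0.046, adjusted p = 5.52e-15) and Vegfa, the vessel growth factor, from 45.8 and 48.3 to 13.4 and 11.1 (log2 fold change -1.95 ± 0.085, adjusted p = 8.82e-12). After polyU alone these genes also lay below vehicle. Bhlhe40 was then at 33.9 and 40.0 CPM, Plin2 at 752 and 792 and Vegfa at 21.7 and 22.2. Vegfa with R848 was at 57.5 and 59.2 CPM. Egln1, the main prolyl hydroxylase of HIF, rose with R848 (log2 fold change 1.01 ± 0.060, adjusted p = 2.12e-10) and fell with PNPi+dG/rG+polyU (log2 fold change -0.54 ± 0.060, adjusted p = 7.42e-07), and Egln2, a further hydroxylase, rose with both (0.97 ± 0.059 and 0.89 ± 0.059). Arnt, the partner subunit of HIF, was at 71.9 ± 0.809 CPM (SD, n = 2) with vehicle and 72.1 ± 0.490 after R848 (adjusted p = 0.949). With the libraries centred the change of Arnt was 0.60 with R848 and 0.26 with PNPi+dG/rG+polyU, both called higher.

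Set directly against R848, PNPi+dG/rG+polyU called 20 members lower and 14 higher, where 16.9% of all genes were called lower and 53.9% higher, and the median was -0.26 over the members and 0.31 over all genes. With the libraries centred, 24 members were lower (37.5% of all genes) and 7 higher (28.4% of all genes). The members lower with PNPi+dG/rG+polyU by the most were Egln3 (-5.55 ± 0.31), Pfkfb3 (-2.43 ± 0.086), Slc16a3 (-2.10 ± 0.048), Hif1a (-1.96 ± 0.056), Slc2a1 (-1.92 ± 0.050), Hk2 (-1.79 ± 0.058) and Pfkl (-1.48 ± 0.050), all called. The value and the call of Egln3, which is in both counts of lower members, are a description for the reason given above. Members at least 2-fold higher with PNPi+dG/rG+polyU were Pfkfb1 (1.39 ± 0.26), Ldhb (1.25 ± 0.34), Eno2 (1.04 ± 0.10) and Pdk2 (1.01 ± 0.19). Of all genes 16.9% were called at least 2-fold higher and 3.86% at least 2-fold lower. With the libraries centred only Pfkfb1 was called at least 2-fold higher (9.97% of all genes were). The call of Ldhb was lost with no filter on low values (adjusted p = 0.0505 in limma). Pkm (95% interval -0.15 to -0.00) and Pgd (95% interval -0.01 to 0.15) were not called, and with the libraries centred both were called lower (-0.46 and -0.31). Doses of the 2 stimuli are of different substances and cannot be matched, so the sizes belong to these doses.

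**Figure D4:**
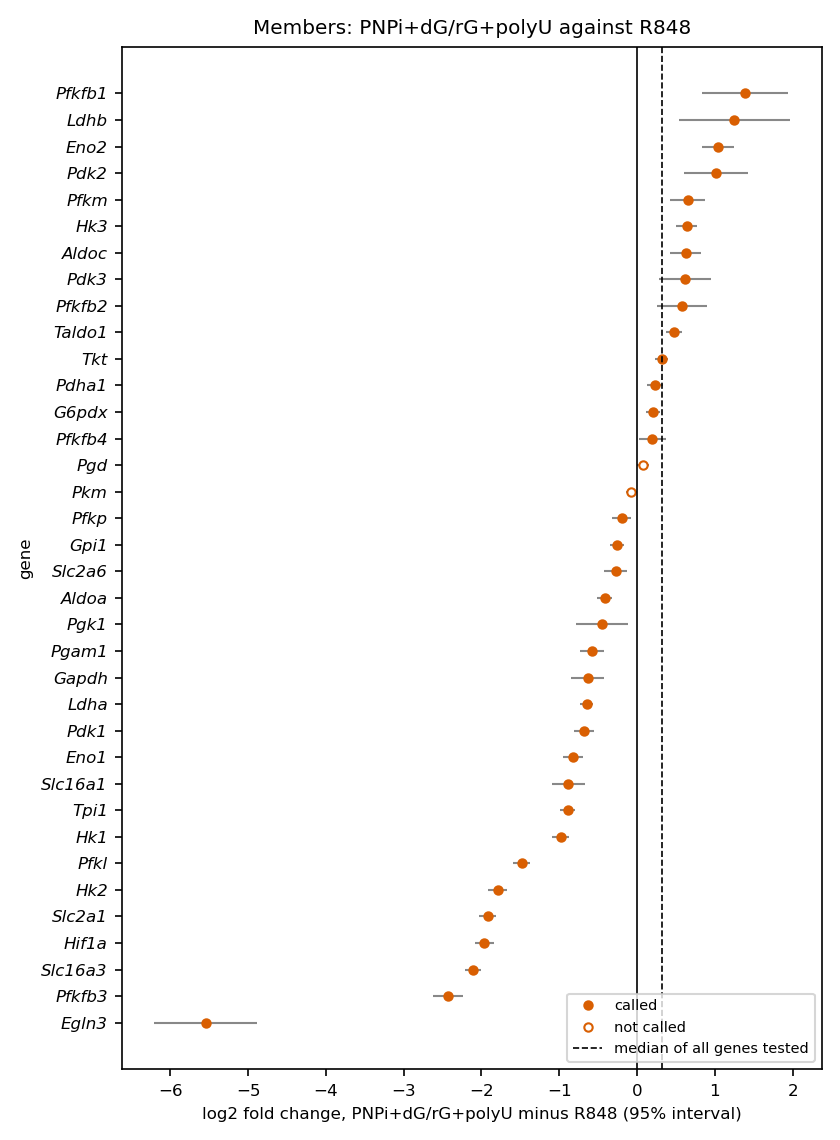
Log2 fold change of PNPi+dG/rG+polyU minus R848 (x axis, with the 95% interval as a bar) for the 36 members (y axis, sorted), with n = 2 libraries per group. Filled points were called, and the dashed line is the median of all genes tested, 0.31. Egln3 lies at -5.55, a description since it entered the tests through its R848 libraries, 6 more members lie below -1, and Pkm and Pgd are the open points.

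PolyU alone moved 17 members by less than 2-fold, 11 up and 6 down, where 20.6% of all genes were called higher and 18.7% lower. Its largest rise was that of Slc2a6 and its largest falls were those of Slc16a1 (-0.46 ± 0.10), Pfkp (-0.41 ± 0.056) and Hk1 (-0.38 ± 0.053). The count of rises was 4 without the first vehicle library, 7 without the second vehicle library and 6 without the second polyU library, which also took the count of falls to 3. Adding PNPi+dG/rG to polyU called 9 members higher and 21 lower than polyU alone, where 15.8% of all genes were called higher and 47.5% lower. The largest of these changes were the rises of Slc2a6 (log2 fold change 1.74 ± 0.069, adjusted p = 5.47e-12) and Pfkfb3 (log2 fold change 1.70 ± 0.086, adjusted p = 1.25e-08) and the falls of Pdk2 (log2 fold change -1.19 ± 0.19, adjusted p = 6.75e-05) and Pfkfb2 (log2 fold change -1.07 ± 0.15, adjusted p = 1.64e-05).

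The interaction, which sets the change that PNPi+dG/rG made when polyU was present against the change it made in its absence, was called for 26 members, 8 above 0 and 18 below 0, where 11.8% of all genes were called above 0 and 38.9% below. The largest were Slc2a6 (1.86 ± 0.10, adjusted p = 4.75e-10) and Pfkfb3 (1.68 ± 0.12, adjusted p = 6.22e-07) above 0 and Pdk2 (-1.10 ± 0.27, adjusted p = 0.0038) and Pfkfb2 (-1.03 ± 0.21, adjusted p = 0.000919) below. The median over the members was -0.31 and over all genes -0.27. With the libraries centred 12 members were called above 0 and 6 below, where 24.1% of all genes were called above 0 and 17.0% below. For Pfkfb3, whose level moved by 0.01 with PNPi+dG/rG alone and -0.21 with polyU alone, the nucleosides and polyU together gave 1.49.

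The make-up of groups of related members was compared as CPM per kb of exon, a per-length level, and each share is of the summed level of the members named, not of all genes of that kind. The length is the annotated exon length of the gene, such as 13401 bases for Pfkp, 3340 for Pfkm, 8532 for Hk1 and 3682 for Hk3. Whether the transcripts in these cells have these lengths was not tested. A length that is too long lowers the share of that form, so the sizes of shares and sums depend on the annotation. Hk3 made up 73.3 and 74.2% of the hexokinase level in the vehicle libraries and 36.4 and 38.003% after R848, while Hk2 went from 10.6 and 10.0% to 45.7 and 44.5%. With PNPi+dG/rG+polyU Hk3 stayed the main form, at 73.3 and 71.5%. The summed hexokinase level was 157 and 170.0 CPM per kb with vehicle, 111 and 117 after PNPi+dG/rG+polyU and 139 and 146 after R848. On this per-length scale Hk2 and Hk3 exchanged places with R848, while the hexokinase sum stayed below its vehicle level in both R848 libraries. The place of that sum relative to vehicle also depends on the lengths used. In CPM not divided by length, the R848 means were 384 for Hk2, 216 for Hk1 and 196 for Hk3. With vehicle they were 100, 222 and 444.

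On the same scale, phosphofructokinase and the Pfkfb enzymes each moved towards a single form. In CPM not divided by length, mean Pfkl and Pfkp were 69.5 and 197 with vehicle and 344 and 188 with R848. The direction of the Pfkl shift was thus the same without the lengths, while the percentages depend on them. Pfkl made up 35.1 and 35.7% of the phosphofructokinase level with vehicle, 55.7 and 52.6% after PNPi+dG/rG+polyU and 75.7 and 76.5% after R848, and the family sum was 28.8 and 30.0, 33.7 and 34.4 and 66.8 and 68.7 CPM per kb. Pfkfb3 made up 49.2 and 52.5% of its family with vehicle, 81.0 and 84.0% after PNPi+dG/rG+polyU and 96.95 and 97.1% after R848. Pfkfb4, the other main form with vehicle, fell from 38.6 and 35.9% to 14.0 and 12.6% and 2.60 and 2.44%. In both families the shift was in the same direction with the 2 stimuli and larger with R848.

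The transporter pairs differed in how the stimuli lined up, and neither sum holds the transporters Slc16a7, Slc2a3, Slc2a8 and Slc2a9. Slc16a3 made up 63.6 and 65.0% of the summed level of Slc16a1 and Slc16a3 with vehicle, 85.0 and 84.7% after PNPi+dG/rG+polyU and 92.5 and 93.2% after R848. The summed level was 29.9 and 28.7 CPM per kb with vehicle and 29.2 and 30.2 after PNPi+dG/rG+polyU, overlapping ranges, and 113 and 121 after R848. Slc2a6 made up 27.0 and 25.6% of the summed level of Slc2a1 and Slc2a6 with vehicle, 39.0 and 43.1% after polyU, 59.8 and 60.7% after PNPi+dG/rG+polyU and 32.1 and 33.1% after R848. Only with PNPi+dG/rG+polyU was Slc2a6 the larger of the 2 in both libraries.

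**Figure D5:**
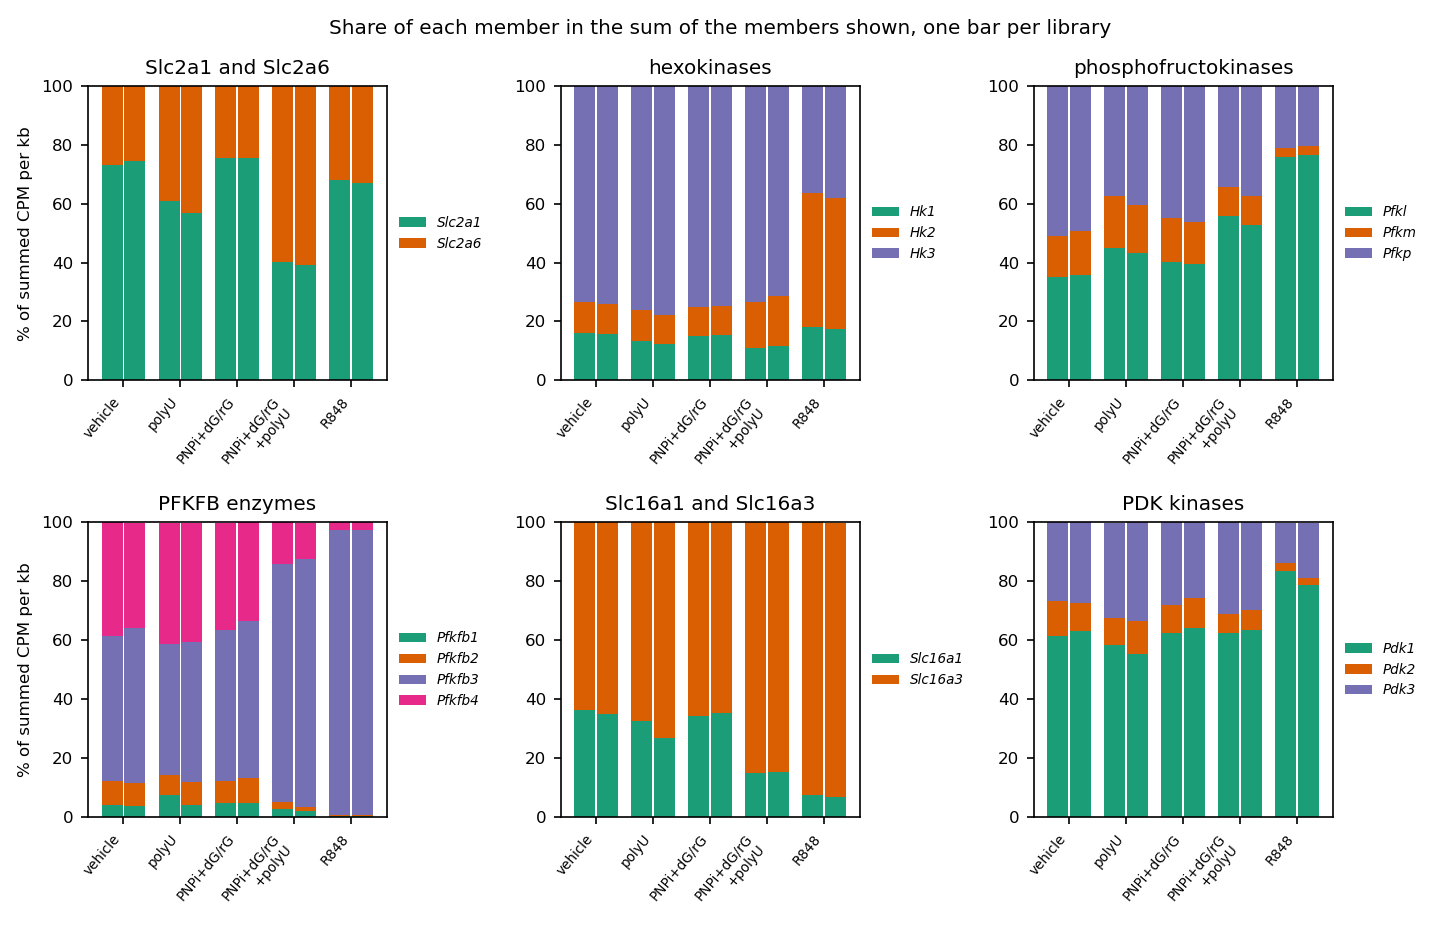
Share of each member in the summed CPM per kb of the members of its group (y axis, percent, adding to 100), 1 bar per library, by treatment (x axis), for 6 groups of members. With R848 Hk2 takes over from Hk3 as the largest hexokinase, and Pfkl, Pfkfb3 and Slc16a3 make up most of the sums shown. The sizes of the shares depend on the annotated exon lengths.

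Further genes of the same pathways, from lists that hold no member, did not all follow. Of 24 further glycolysis and hexose genes 14 could be tested, and R848 raised 2 and lowered 11 (19.2% and 62.9% of all genes), whereas PNPi+dG/rG+polyU raised 1 and lowered 10 (22.2% and 46.7% of all genes). The counts after centring were 5 higher and 9 lower with R848 (43% and 34.6% of all genes). With PNPi+dG/rG+polyU they were 2 higher and 7 lower (33.2% of all genes in each direction). Gpd2, the mitochondrial glycerol phosphate dehydrogenase, rose with both, from 55.9 and 57.6 CPM with vehicle to 206 and 194 after PNPi+dG/rG+polyU (log2 fold change 1.82 ± 0.054, adjusted p = 7.84e-14) and 379 and 391 after R848 (log2 fold change 2.76 ± 0.054, adjusted p = 2.42e-16). The other rise with R848 was that of Pgm1, a phosphoglucomutase (log2 fold change 0.96 ± 0.077, adjusted p = 1.1e-08). The largest falls were those of the transporters Slc2a3, from 26.8 and 23.9 CPM with vehicle to 2.92 and 2.33 after R848 (log2 fold change -3.28 ± 0.12, adjusted p = 7.15e-13), and Slc2a8 (log2 fold change -2.32 ± 0.14, adjusted p = 5.29e-10), and of the mutase Bpgm (log2 fold change -2.02 ± 0.14, adjusted p = 1.76e-09). All 3 hexose transporters on this list that could be tested, Slc2a3, Slc2a8 and Slc2a9, fell with both stimuli, which raised Slc2a1 and Slc2a6.

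Of 15 further pyruvate and lactate genes 14 could be tested, with 2 higher and 10 lower with R848 (19.2% and 62.9% of all genes) and 4 higher and 5 lower with PNPi+dG/rG+polyU (22.2% and 46.7% of all genes). Centring gave 6 higher and 5 lower with R848, where 43% of all genes were higher and 34.6% lower. The balance with R848 thus turned as it did over all genes. With PNPi+dG/rG+polyU centring gave 7 higher and 4 lower, where 33.2% of all genes were called in each direction. Bsg, the chaperone of the lactate transporters (0.68 ± 0.046), and Dld, a shared subunit of the dehydrogenase complexes (0.46 ± 0.049), were the 2 raised by R848. PNPi+dG/rG+polyU raised Dld (0.48 ± 0.049), the pyruvate carrier subunit Mpc2 (0.39 ± 0.10), Pdhb (0.25 ± 0.074) and Bsg (0.11 ± 0.046) and lowered Pdp1 (-1.86 ± 0.10), Pdpr (-1.18 ± 0.090), Slc16a7 (-1.01 ± 0.11), Cs (-0.32 ± 0.042) and Pdp2 (-0.28 ± 0.095). The call of Bsg was lost when any of the 4 libraries compared was left out, that of Pdhb without the first vehicle library (0.16, adjusted p = 0.0984) and that of Pdp2 without the second vehicle library or the second PNPi+dG/rG+polyU library (adjusted p = 0.0555 and 0.160). The phosphatase Pdp1, which switches pyruvate dehydrogenase back on, thus fell beside the kinase Pdk2, from 33.9 and 30.7 CPM with vehicle to 9.06 and 8.65 after PNPi+dG/rG+polyU and 7.33 and 6.92 after R848 (log2 fold change -2.18 ± 0.10, adjusted p = 1.27e-11). With R848 the largest falls on this list were also those of Slc16a7, a pyruvate and lactate transporter (-2.22 ± 0.11), Pdp1, and Pdpr (-1.20 ± 0.090).

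All 8 further pentose phosphate genes were lower with R848 (62.9% of all genes were), and 6 of 8 with PNPi+dG/rG+polyU (46.7% of all genes were), with none higher. The largest falls with R848 were those of the sedoheptulose kinase Shpk, from 5.72 and 5.00 CPM with vehicle to 1.33 and 0.735 (log2 fold change -2.44 ± 0.28, adjusted p = 8.83e-07), and of the ribose phosphate pyrophosphate synthetases Prps2 (log2 fold change -1.67 ± 0.085, adjusted p = 3.44e-11) and Prps1 (log2 fold change -1.35 ± 0.13, adjusted p = 6.24e-08). With the libraries centred, 5 of the 8 were lower and 1 higher with R848 (34.6% and 43% of all genes). With PNPi+dG/rG+polyU 3 were then lower (33.2% of all genes). Of the 6 falls with PNPi+dG/rG+polyU, that of Prps1 (-0.30 ± 0.13, adjusted p = 0.0439) lost its call in 9 alternatives, 6 of which left out 1 library, and that of Shpk without the second PNPi+dG/rG+polyU library (-0.69, adjusted p = 0.0829). With PNPi+dG/rG+polyU the largest fall was that of H6pd, the enzyme of the endoplasmic reticulum (log2 fold change -1.34 ± 0.058, adjusted p = 7.75e-12).

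Per length, the members with the highest level in vehicle were Aldoa at 409.8, Pkm at 283, Ldha at 178, Taldo1 at 143 and Hk3 at 121 CPM per kb. The lowest were Egln3 at 0.306, Pfkfb1 at 0.755 and Ldhb at 0.805 CPM per kb. These levels and ranks also depend on the annotated exon lengths. Gapdh, at 2.57 CPM per kb, ranked 31 of 36, which carries the uncertainty over its row described above. The 36 members together took 7490 and 7705 CPM with vehicle, 7124.7 and 7298.3 after PNPi+dG/rG+polyU, and 10860 and 11340 after R848. This sum over all 36 members, pentose phosphate and HIF genes included, was highest in both R848 libraries and lowest in those of PNPi+dG/rG+polyU.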

How the data were processed

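RNA from mouse BMDMs was sequenced with a stranded mRNA kit, and per the labels and the methods of the study reads were aligned with STAR 2.27a to GRCm38 and assigned to Ensembl release 97 genes. The deposited values are CPM values (reads on a gene scaled to a common library total) with 0.0001 added, made by the authors in Partek Flow. Strand setting and the rule for reads on several genes are not given in the sources used here. Positions, exon lengths and shared 50-base stretches came from GENCODE release M21, and promoters from RefSeq. The log2 of the deposited values was fitted with limma 3.58.1 (R 4.3.3, statmod 1.5.0) over all 10 libraries, with a trended and robust variance, for the 11978 genes at 1 CPM or more in at least 2 libraries. Adjusted p-values are Benjamini-Hochberg values over these genes, two-sided, and a call is an adjusted p under 0.05. Fold changes on this scale are not shrunk, and those of low genes rest on few reads. Read numbers were obtained from the smallest step of each library's values. Intervals of fold changes come from the fit at a 95% level. The steps were tested on simulated data. The members and lists were chosen with earlier results of these data known. All members are named, with values of every library for 16 set members, for the 4 largest called changes in each direction with each stimulus and for members called in opposite directions, and further lists give the 3 largest called changes in each direction and every gene of a count of 5 or fewer, while Egln1, Egln2, Arnt, Bnip3 and Slc2a9 were named after their values were seen.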

Additional observations from a re-analysis of the deposited data

Results flagged for a closer look

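The effect of PNPi+dG/rG on the level differed with and without polyU for 26 of the 36 members, by the test of the difference itself (the interaction in limma, adjusted p under 0.05), which is a difference between log2 fold changes. It was above 0 for Slc2a1 (0.59), Slc2a6 (1.86), Hk2 (0.31), Pfkl (0.34), Pfkp (0.24), Pfkfb3 (1.68), Slc16a3 (0.415) and Hif1a (0.24). It was below 0 by at least 0.50 for Hk1 (-0.54), Hk3 (-0.53), Pfkm (-0.55), Pfkfb2 (-1.03), Pfkfb4 (-0.66), Slc16a1 (-0.76), Pdk2 (-1.10) and Pdk3 (-0.72). Smaller values below 0 were those of Gpi1 (-0.35), Aldoc (-0.40), Tpi1 (-0.23), Pgam1 (-0.28), Eno1 (-0.41), Pkm (-0.33), Ldha (-0.16), Pdk1 (-0.48), Tkt (-0.34) and Taldo1 (-0.48). Among all genes tested 11.8% were called above 0 and 38.9% below. With the libraries centred 12 members were called above 0 and 6 below (24.1% and 17.0% of all genes). The signs of Tpi1, Pgam1 and Ldha then turned, and the calls of Hk3, Gpi1, Pfkm, Aldoc, Eno1, Pkm, Pdk1, Pdk3 and Tkt were lost. Leaving out 1 library at a time lost the call of Pfkp, Aldoc, Pgam1, Ldha, Pdk3 and Hif1a in at least 1 fit (adjusted p up to 0.132). Groups of 2 libraries are too small for a test of single libraries that stand apart.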

How the results depend on the processing

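Of 5724 values of 318 gene results over 18 alternatives, 5434 kept their direction and side of the threshold, 214 lost the call, 42 gained it and 34 turned in sign, all 34 when each library was centred on the median of its genes. These were, with PNPi+dG/rG+polyU against vehicle, Aldoa (0.11), Tpi1 (0.0892), Ldha (0.17), Pdha1 (0.0691), G6pdx (0.19), Tkt (0.0095) and Taldo1 (0.0896). With R848 against vehicle they were Hk1 (0.56), Gpi1 (0.59), Pfkp (0.52), Pkm (0.35), Slc16a1 (0.26), Pdk1 (0.59), Pdha1 (0.22), G6pdx (0.37), Tkt (0.0738), Mpc2 (0.19), Bhlhe40 (0.00078), Pdhb (0.26) and Cs (0.31). Against polyU they were Aldoa (0.10), Pgam1 (0.0121), Ldha (0.0626), Pdha1 (0.17) and G6pdx (0.13), against R848 Pfkfb4 (-0.19), Pdha1 (-0.15), G6pdx (-0.17), Pgd (-0.31) and Tkt (-0.0644), and in the interaction Tpi1 (0.0528), Pgam1 (0.00917), Ldha (0.125) and G6pdx (0.21).

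Centring moved the count of members called higher to 6 with polyU against vehicle (17.2% of all genes), 14 with PNPi+dG/rG+polyU against vehicle (33.2%) and 7 with PNPi+dG/rG+polyU against R848 (28.4%). It moved the count of members called lower to 9 with PNPi+dG/rG+polyU (33.2% of all genes), 9 with R848 (34.6%), 10 against polyU (25.3%) and 6 in the interaction (17.0%). It moved the median over the members to 0.0145 with polyU, 0.0536 with PNPi+dG/rG+polyU, 0.57 with R848, -0.0323 against polyU, -0.65 against R848 and -0.0186 in the interaction, and a pseudocount of 1 moved that against polyU to -0.25. Without a trended and robust variance 6 members were called higher with polyU, and with no filter on low values 2 were called higher with PNPi+dG/rG. PNPi+dG/rG alone called no member in limma, and 1076 of all genes had an unadjusted p under 0.05.

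When 1 library at a time was left out, polyU called between 4 and 10 members higher and between 3 and 6 lower, PNPi+dG/rG+polyU between 7 and 9 higher and between 15 and 19 lower, and R848 between 15 and 16 in each direction. Against polyU the ranges were 7 to 9 and 20 to 21, against R848 12 to 14 and 18 to 20, and in the interaction 6 to 8 and 14 to 19. The medians ranged from 0.05 to 0.08 with polyU, -0.02 to 0.02 with PNPi+dG/rG, -0.19 to -0.12 with PNPi+dG/rG+polyU, -0.05 to 0.00 with R848, -0.30 to -0.27 against polyU, -0.32 to -0.21 against R848 and -0.34 to -0.27 in the interaction. A group left with 1 library was assumed to vary like the others.

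With the replicate number as a replicate block, 10 members were called higher and 7 lower with polyU and 9 higher and 19 lower with PNPi+dG/rG+polyU, and no count moved by more than 1.5 times. The deviations of same-numbered libraries had correlations from -0.29 to 0.11 over 8459 genes, so the numbers were not taken as pairs. A block that exchanged the 2 replicate numbers of the PNPi+dG/rG libraries, chosen after seeing the data, called 1 member higher with PNPi+dG/rG.

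A count test on reads recovered from the CPM steps was planned and not run. Depth limits Egln3, Ldhb and Pfkfb1, whose levels rest on 6 to 137 reads per library, apart from Egln3 in R848. It also limits Pdk2 with R848, at 1.17 and 1.32 CPM, close to Pfkfb1 with R848 at 1.06 and 1.19 CPM. A change that was not called is not shown to be absent, and causes of the changes between settings other than their construction were not tested.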
